A study of Mus musculus with 8 samples.

Results

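Fuel-sensing nuclear receptors and their coactivators are among the loci most often examined after maternal undernutrition, and 8 of these genes were followed here in nephron progenitors: Ppara, Ppard and Pparg, the genes of the peroxisome proliferator-activated receptors (PPARs), Rxra and Rxrb, which encode retinoid X receptors (RXRs), Ppargc1a and Ppargc1b, which encode the coactivators PGC-1alpha and PGC-1beta, and Esrra, which encodes the estrogen-related receptor ERRalpha. Their CpGs were taken from the mm10 gene bodies extended by 5 kb at each end, after the strands of a CpG had been added, and a CpG was kept where no library had fewer than 10 reads. This gave 655 CpGs of 441994 shared autosomal CpGs: 79 for Ppara, 39 for Ppard, 50 for Pparg, 62 for Rxra, 92 for Rxrb, 156 for Ppargc1a, 66 for Ppargc1b and 111 for Esrra.

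A PPAR binds DNA as a pair with an RXR, and ligands derived from fatty acids switch the pair to gene activation. PPARalpha is known for driving fatty acid oxidation, PPARgamma for adipocyte formation and lipid storage, and PPARdelta for oxidative fuel use in many tissues. PGC-1alpha and PGC-1beta are recruited by these receptors and by ERRalpha to raise mitochondrial gene expression, and in the adult kidney this network is best known from the fatty-acid-burning tubule. Methylation of CpGs at a CpG-rich promoter goes with silencing, and lower Ppara promoter methylation has been described in livers of rat offspring after maternal protein restriction.

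The libraries came from outbred CD1 mouse embryos at stage E17.5, made by mating Six2-EGFP/cre transgenic males with wild-type CD1 females, both 8 to 10 weeks old. All embryos analysed carried the transgene in heterozygous form, so restricted and unrestricted libraries share it, and GFP-positive cells were sorted from dissociated kidneys without regard to the embryo's sex. Restricted dams received 70% of the average daily food intake once a day, unrestricted dams ate freely, and each diet had 4 libraries of reduced representation bisulfite sequencing (RRBS), which reads CpG-rich fragments and reports the share of reads that keep a cytosine as methylated. Whether a library holds 1 litter or a pool is not stated in the labels, so each p-value refers to the spread of these libraries, which may be technical. The transgene marks cells with Six2 promoter activity, and the labels give no purity of the sort.

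Read counts summed over CpG cytosines were 16045992 to 32054622 in restricted and 20863822 to 37305007 in unrestricted libraries. The median shared CpG had 20 to 44 reads. In restricted libraries 1 and 2 unmethylated CpGs took more of the reads, with a read-weighted minus unweighted mean of -2.24 and -3.28 percentage points, while the remaining 6 libraries had -0.575 to 0.817. Gene-start windows of nephron progenitor genes (4 of 6 autosomal markers measured, among them Six2, Pax2 and Wt1) averaged 0.0619% ± 0.0159 with restriction and 0.0417% ± 0.0141 without (SD, n = 4 each). Those of ureteric bud genes averaged 0.327% ± 0.124 and 0.175% ± 0.0352, those of stromal genes 0.0502% ± 0.0183 and 0.0341% ± 0.0446, and endothelial and blood markers had no measured window. All 3 measured marker lists were thus nearly unmethylated, and gene-start methylation gave no check of the labelled cell type. Mitochondrial CpGs, a guide to incomplete conversion, read as methylated in 0.0242 to 0.0854% of reads in restricted and 0.0221 to 0.0695% in unrestricted libraries.

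Stretches at some of the starts are printed here from RefSeq's promoter table (GRCm38.p6, the coordinate system of mm10). Each holds 300 bases, 5′ to 3′ on the gene's strand, of which the last 50 follow the start. The gene-start windows tested below are longer than these stretches. Of the 8 genes, 7 matched an entry, with 11 starts in all. Capitals mark the CpGs kept by this read minimum. Ppara, start 1 of Pparg, start 1 of Rxrb and Esrra are shown because their CpGs were read densely, and the single start of Ppargc1a and start 3 of Pparg because none of theirs was.
Ppara (chr15:85735526-85735825, plus strand): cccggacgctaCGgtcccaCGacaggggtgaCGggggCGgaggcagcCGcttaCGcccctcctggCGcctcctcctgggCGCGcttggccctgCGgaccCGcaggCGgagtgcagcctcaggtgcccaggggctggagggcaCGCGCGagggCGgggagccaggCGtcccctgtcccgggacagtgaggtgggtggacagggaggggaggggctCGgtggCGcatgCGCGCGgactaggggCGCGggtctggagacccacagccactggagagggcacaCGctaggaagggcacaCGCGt
Pparg start 1 (chr6:115360894-115361193, plus strand): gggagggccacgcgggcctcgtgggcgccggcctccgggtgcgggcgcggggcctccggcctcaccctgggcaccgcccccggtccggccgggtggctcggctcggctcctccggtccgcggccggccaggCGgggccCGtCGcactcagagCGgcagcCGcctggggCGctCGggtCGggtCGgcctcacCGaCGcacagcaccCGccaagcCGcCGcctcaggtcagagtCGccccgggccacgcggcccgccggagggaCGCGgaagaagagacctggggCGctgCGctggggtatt
Rxrb start 1 (chr17:34031562-34031861, plus strand): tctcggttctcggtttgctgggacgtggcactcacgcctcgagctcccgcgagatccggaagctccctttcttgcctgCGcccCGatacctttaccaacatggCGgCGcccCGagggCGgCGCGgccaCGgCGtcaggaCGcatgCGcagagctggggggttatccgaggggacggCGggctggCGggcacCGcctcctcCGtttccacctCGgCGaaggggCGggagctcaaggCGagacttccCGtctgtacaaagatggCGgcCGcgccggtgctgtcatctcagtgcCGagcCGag
Esrra (chr19:6921759-6922058, minus strand): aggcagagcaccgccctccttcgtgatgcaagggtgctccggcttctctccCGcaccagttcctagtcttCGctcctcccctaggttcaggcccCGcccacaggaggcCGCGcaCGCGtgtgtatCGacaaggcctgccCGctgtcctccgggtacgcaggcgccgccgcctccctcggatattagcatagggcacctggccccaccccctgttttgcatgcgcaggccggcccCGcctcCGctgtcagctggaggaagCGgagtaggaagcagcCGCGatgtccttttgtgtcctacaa
Ppargc1a (chr5:51567676-51567975, minus strand): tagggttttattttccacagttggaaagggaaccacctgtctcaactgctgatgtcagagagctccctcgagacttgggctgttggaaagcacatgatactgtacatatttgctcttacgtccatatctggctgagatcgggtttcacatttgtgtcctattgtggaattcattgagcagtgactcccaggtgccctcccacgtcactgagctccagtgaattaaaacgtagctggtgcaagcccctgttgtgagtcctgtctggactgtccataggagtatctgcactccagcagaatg
Pparg start 3 (chr6:115421816-115422115, plus strand): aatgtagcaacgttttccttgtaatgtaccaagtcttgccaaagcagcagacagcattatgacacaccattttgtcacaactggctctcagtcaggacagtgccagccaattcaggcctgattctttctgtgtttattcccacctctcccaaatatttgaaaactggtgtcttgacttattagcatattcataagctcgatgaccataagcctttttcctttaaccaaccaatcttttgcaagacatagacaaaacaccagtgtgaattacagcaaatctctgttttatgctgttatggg
The Ppara stretch holds 30 CpGs, of which 27 were measured. Pparg start 1 holds 44 with 19 measured, Rxrb start 1 holds 37 with 25 measured, and Esrra holds 25 with 14 measured. The Ppargc1a stretch holds 5 CpGs and Pparg start 3 holds 2, against a median of 7 in the 32817 RefSeq promoters. Within 1000 bases of either start, no library had a read at any CpG cytosine. CCGG, the cutting site of MspI, the enzyme usual in RRBS although the labels name none, is in 52.8% of the promoters, but not in these 2 stretches, while Ppara holds 2, Pparg start 1 holds 10, Rxrb start 1 holds 2 and Esrra holds 3. TGACGT, the core of cAMP response elements, occurs once in the Ppargc1a stretch (on either strand) and in 7.5% of all promoters. AGGTCA, the core hexamer of PPAR and RXR sites, occurs once in Pparg start 1 and in 16.3% of all promoters. Motifs were counted on both strands, whether or not they overlapped another motif.

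Every measured start window of the 7 genes with start data was almost free of methylation under both diets. In the 300 bases printed for Ppara, 0 of 2591 reads, summed over CpGs, were methylated with restriction and 0 of 3290 without. Taken as independent counts, these allow levels of up to 0.116% and 0.0912%. The same holds for Ppard, whose 6 measured promoter CpGs had 0 of 798 and 0 of 1116 methylated reads (up to 0.376% and 0.269%). Pparg start 1 had 3 of 1649 methylated reads in restricted and 2 of 2798 in unrestricted libraries. Rxrb start 1 had 2 of 1892 and 2 of 2876, and Esrra 1 of 2605 and 0 of 2689. Here and below, read counts over several CpGs are sums, so a read that spans several CpGs counts at each. The limits take these counts as independent and can be narrower than the number of separate reads allows. These limits and the binomial intervals below cover counting error only, since PCR copies of a molecule cannot be told apart in RRBS.

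Gene-start windows, running 1000 bases before to 500 after a start, gave 9 testable units. They were compared by a logistic model of the methylated share of reads, with a likelihood-ratio F test for diet, Benjamini-Hochberg adjusted over all 13206 windows. None of the 9 passed at an adjusted p under 0.05, against 0.121% of all windows (16). At an unadjusted p under 0.05 there was 1, Esrra, against 7.01% of all windows. In none of the 9 did the groups separate, against 1.5% of all windows. Under the same rule, limma on M-values called 0 of the 9, with 1 (11.1%) at an unadjusted p under 0.05 against 6.78% of all windows, and edgeR called 0, with 0 against 4.38%.

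Ppara, the window with the most reads, had levels of 0.186, 0.070, 0.267 and 0.260% in restricted libraries 1 to 4, against 0, 0.111, 0.261 and 0.093% in unrestricted libraries. Restricted library 2 lay below most unrestricted ones, and the groups overlapped. The mean was 0.196% ± 0.0915 with restriction and 0.116% ± 0.108 without (adjusted p = 0.672 by the logistic model).

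For Ppard, no methylated read was seen among 3148 reads of the 4 restricted libraries, which allows up to 0.0953%, while unrestricted libraries had 0.108, 0, 0.227 and 0%. Only unrestricted libraries 1 and 3 had methylated reads, 3 in all of 4529, and the groups shared the value 0 (adjusted p = 0.672 by the logistic model). The gene is the most widely expressed PPAR.

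Pparg has 3 annotated starts, of which 2 could be measured, and their windows share 1 CpG of 50. Start 1 had 0.121, 0, 0.413 and 0% with restriction and 0.122, 0, 0 and 0.105% without. The value of restricted library 3 stood above the rest, and without it the difference of 0.0766 percentage points became -0.0167. Start 2 had 0.234, 0.435, 0.181 and 0.181% with restriction and 0.140, 0.264, 0 and 0.252% without, which overlap. The adjusted p-values were 0.688 and 0.841 by the logistic model.

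The RXR genes, whose products pair with all PPARs, also had start windows near 0, though not all of their promoter stretches were read. Of the 55 CpGs in the 300-base stretch of Rxra start 1, 2 were measured. Of the 47 CpGs in that of Rxrb start 2, 0 were measured. The Rxra window had 0.13, 0, 0.185 and 0% in restricted and 0.13, 0, 0.239 and 0% in unrestricted libraries, an almost equal set of values. Rxrb start 1 had 0.0518, 0.0963, 0 and 0.0773% with restriction and 0.192, 0.0462, 0 and 0% without. Its window begins inside the neighbouring gene Slc39a7. The window of the second Rxrb start repeats 43 of the first window's 48 CpGs, with means of 0.0689% ± 0.0517 with restriction and 0.0515% ± 0.0717 without. These CpGs lie at or before 34032000, ahead of that start at 34032350. The groups overlapped in each of these windows. Rxra start 2 was not measurable, with 0 to 2 reads per library within 1000 bases.

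Ppargc1b has no entry in the promoter table, so the gene end with more CpGs stands in for its start. That window, which overlaps the lncRNA Gm52354, had 0.132, 0, 0.194 and 0.388% with restriction and 0, 0.0915, 0.255 and 0% without. Restricted library 4 was the highest and the groups overlapped (adjusted p = 0.673 by the logistic model).

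Esrra was the window with the smallest unadjusted p. It had 0, 0.169, 0.116 and 0.159% in restricted libraries and 0% in all 4 unrestricted libraries, which rests on 3 methylated reads of 3342 against 0 of 4029. The count of 0 allows up to 0.0745%, and restricted library 1 shared the value 0 with the unrestricted group. The difference of 0.111 percentage points had an unadjusted p of 0.0404 and an adjusted p of 0.672 by the logistic model, with adjusted p-values of 0.600 to 0.872 over its alternatives. Of mitochondrial reads, 0.0221 to 0.0854% were called methylated, and the part of incomplete conversion in the difference was not tested. Averaged over the 9 windows, the level was 0.120% ± 0.0242 with restriction and 0.0790% ± 0.0272 without. This average counts 43 Rxrb CpGs in both Rxrb windows, and its difference was not tested.

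**Figure D1:**
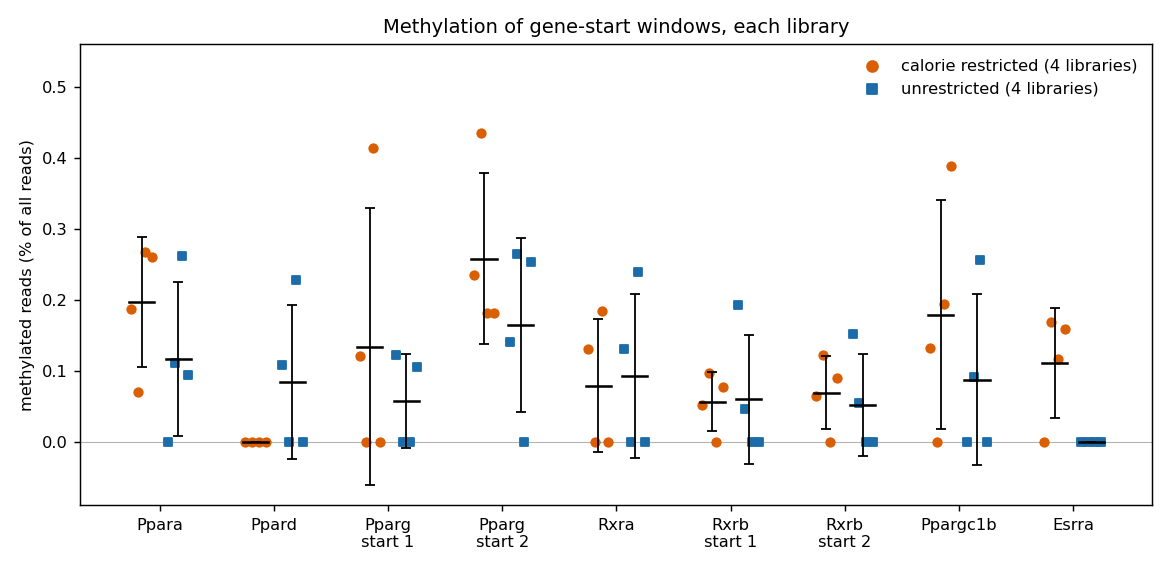
Percent of methylated reads in each of the 9 gene-start windows (vertical axis), with 1 point per library, restricted libraries (orange circles) left of unrestricted ones (blue squares). Bars are the mean and SD of 4 libraries. All points lie at or under 0.435%, and the groups overlap in every window.

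Over whole gene regions the 8 genes differed widely in level, while the diet groups overlapped in each of them. The unweighted mean over all CpGs of a gene was highest in Ppard, with 23.7, 22.2, 24.6 and 23.6% in restricted libraries and 22.2, 24.2, 23.5 and 23.2% in unrestricted ones. Ppargc1a followed with 10.3, 10.8, 10.7 and 9.96% against 10.0, 10.7, 9.86 and 9.93%. Neither gene had groups that stood apart.

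Next in order were Rxra (4.73% ± 0.137 with restriction, 5.01% ± 0.326 without), Ppargc1b (4.2% ± 0.339 and 4.24% ± 0.342), Ppara (4.17% ± 0.217 and 4.10% ± 0.205), Rxrb (3.32% ± 0.321 and 3.10% ± 0.287), Esrra (1.93% ± 0.245 and 2.13% ± 0.397) and Pparg (0.201% ± 0.0682 and 0.112% ± 0.0798). Over the 8 libraries, the ranges of Rxra and Ppargc1b overlapped, as did those of Ppargc1b and Ppara and those of Rxrb and Esrra. The ranges of Ppard, Ppargc1a and Pparg each stood clear of their neighbours. The genes also differ in where their measured CpGs lie: all 50 Pparg CpGs lie in its start windows, whereas 13 of 39 Ppard CpGs lie deeper in the gene.

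With reads pooled over a whole gene region, 0 of the 8 genes passed the logistic test, as did 0% of 14656 gene regions. At an unadjusted p under 0.05 there were 0 of 8, against 12.6% of all regions, of which the larger share, 11.4% of all regions, was lower with restriction and 1.19% higher. In either direction, the share of all regions fell from 12.6% to 8.04% without restricted library 1 and 5.65% without restricted libraries 1 and 2. These fits rest on fewer libraries, and the cause of the fall was not tested. Shares with other single libraries left out are not given here. In none of the 8 did the groups separate, against 5.12% of all regions. limma on M-values called 0 of 8 with 1 (12.5%) at an unadjusted p under 0.05, against 9.22% of all regions, and edgeR 0 with 0, against 10.0%. Pooled differences ran from -1.02 percentage points in Rxra to 0.436 in Ppard, and the adjusted p-values were 0.633 or more. Pooling weights each CpG by its reads, and for Rxra the unweighted difference was -0.284 points. Restricted libraries 1 and 2 lean to unmethylated CpGs, and the part of this lean in the pooled values was not tested. Without restricted libraries 1 and 2, 0 of 8 regions passed.

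Of the 655 CpGs, 92.4% had a mean level under 20%, 3.51% lay between 20 and 80% and 4.12% above 80%. Over all shared CpGs the shares were 80.2, 6.71 and 13.1%. No methylated read in any library was seen at 461 CpGs, 70.4% of the 655 against 56.6% of all. Density of measured CpGs went with level in these genes as in the rest of the data. All 14 tiles (1 kb steps along the chromosome) with 20 or more measured CpGs had a mean level under 1%, as did 91.8% of such tiles in the whole data set, whereas 7 of the 18 tiles with 3 to 9 CpGs exceeded 20%, against 55.1% in the whole set.

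**Figure D2:**
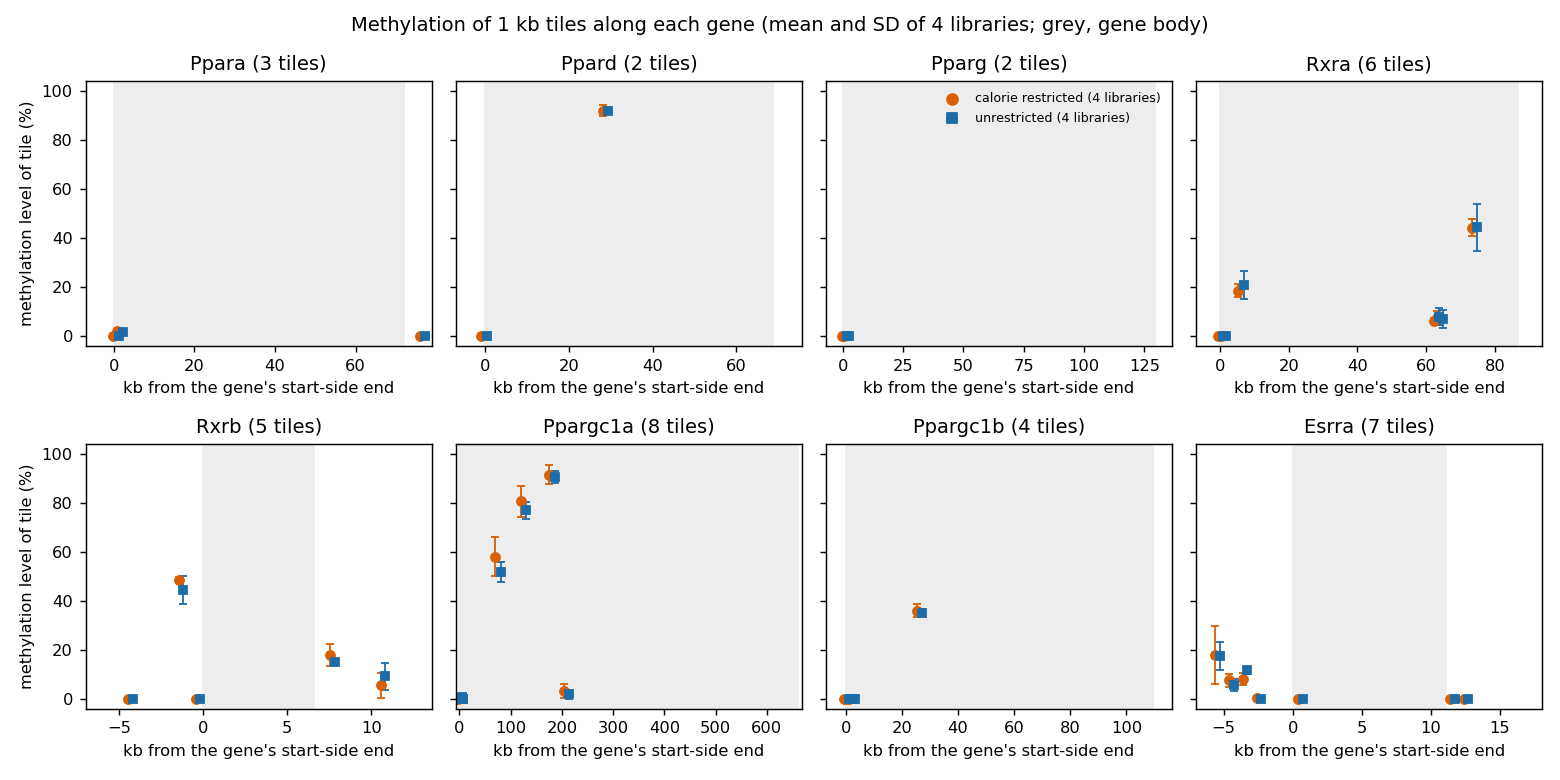
Mean methylation level of every measured 1 kb tile (vertical axis, percent; bars, SD of 4 libraries) against its distance in kb from the end of the gene that holds its start side, 1 panel per gene, with the gene body in grey. Orange circles are restricted and blue squares unrestricted libraries, drawn slightly apart for sight. The tile nearest each start-side end sits near 0. Methylated tiles lie inside Ppard, Rxra, Ppargc1a and Ppargc1b or in the flanks of Rxrb and Esrra, in part on the start side. For Ppargc1a this end is not the annotated start, and for Ppargc1b, without an entry in the promoter table, it is the end with more CpGs.

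Among 1 kb tiles, 37 were measured and 36 could be tested, since 1 Ppargc1b tile had no methylated read at all. None of the 36 passed the logistic test at an adjusted p under 0.05, against 0.0177% of 33897 tiles (6). At an unadjusted p under 0.05 there were 2, or 5.56%, against 6.32% of all tiles, with 1 higher and 1 lower under restriction (3% and 3.32% of all tiles). By limma 0 were called with 3 (8.33%) at an unadjusted p under 0.05, against 6.41% of all tiles, and by edgeR 0 with 0, against 5.59%. In no tile did the groups separate, against 2.26% of all tiles. The median difference was 0.0393 percentage points, with 20 tiles higher and 16 lower under restriction, beside -0.0116 points over all tiles.

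**Figure D3:**
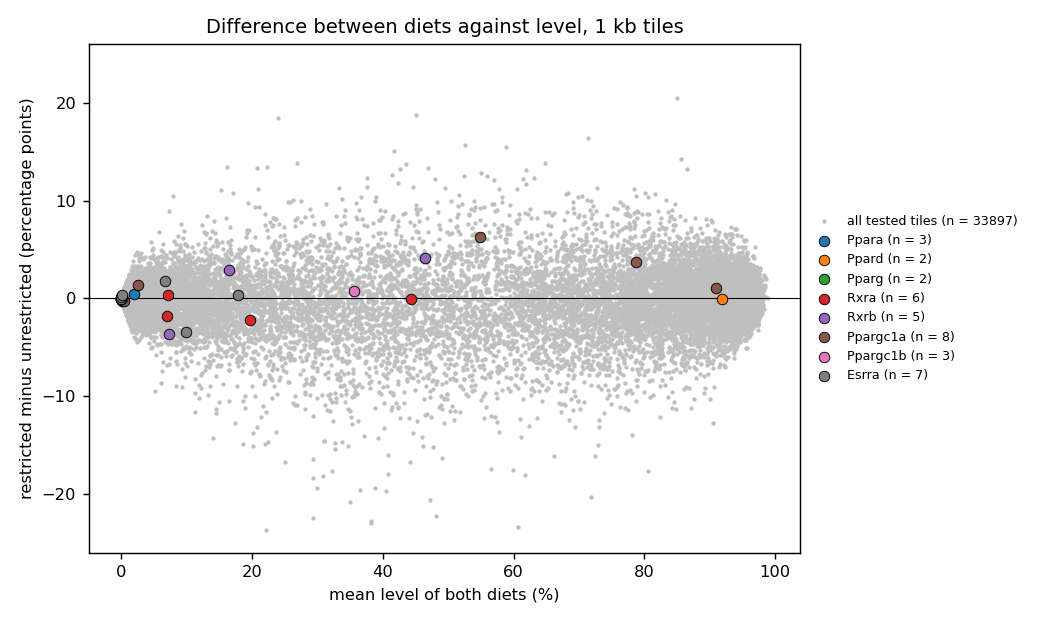
Difference in methylation, restricted minus unrestricted in percentage points (vertical axis), against the mean level of both diets in percent (horizontal axis) for the 33897 tested tiles (grey) and the 36 tiles of the 8 genes (coloured). The coloured points run from -3.67 to 6.31 points and lie inside the grey cloud.

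The largest tile difference was in Ppargc1a, the gene of a coactivator that fasting and cold induce in liver and brown fat. Its annotated start lies at position 51567725 of chromosome 5 on the minus strand, while the gene table extends the body to 52115853, so that all 8 measured tiles lie upstream of that start. The tile at 52040001 to 52041000 (4 CpGs) had 54.4, 65.0, 64.2 and 48.3% in restricted libraries and 50, 57.3, 48.1 and 51.3% in unrestricted ones. Restricted libraries 2 and 3 were the highest and library 4 lay among the unrestricted values. The means were 58.0% ± 8.04 and 51.7% ± 3.96, a difference of 6.31 percentage points (adjusted p = 0.773 by the logistic model).

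Within that tile 1 CpG, at position 52040998, had the smallest p of the 194 tested CpGs of these genes. Restricted libraries 1 to 4 had 17 of 34, 13 of 17, 12 of 24 and 2 of 14 reads methylated (50, 76.5, 50 and 14.3%). Unrestricted libraries 1 to 4 had 7 of 43, 13 of 41, 3 of 20 and 8 of 39 (16.3, 31.7, 15 and 20.5%). Restricted libraries 1 to 3 lay above all unrestricted ones and library 4 below them, with exact 95% binomial intervals of 50.1 to 93.2% for restricted library 2 and 1.78 to 42.8% for library 4.

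The means at this CpG were 47.7% ± 25.5 with restriction and 20.9% ± 7.60 without, a difference of 26.8 percentage points (unadjusted p = 0.000178, adjusted p = 0.120 by the logistic model). It passed without restricted library 4 (37.9 points, adjusted p = 0.00369) and without unrestricted library 2 (30.4 points, adjusted p = 0.00361). The difference was 17.2 points without restricted library 2 (adjusted p = 0.270) and 11.3 points without restricted libraries 1 and 2, the libraries that lean to unmethylated CpGs (adjusted p = 0.693), all by the logistic model. Its neighbours in the tile had smaller differences: the CpG at 52040801 had 78.5% ± 8.02 and 85.6% ± 3.79, that at 52040839 had 12.1% ± 12.5 and 5.56% ± 2.97, and that at 52040932 had 92.4% ± 6.05 and 96.2% ± 4.34.

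The other upstream tiles of Ppargc1a ranged from almost fully methylated to unmethylated. The tile at 51935001 to 51936000 had 93.1, 85.7, 94.0 and 93.0% with restriction and 90.7, 93.0, 90.5 and 87.3% without. The tile at 51990001 to 51991000 had 77.1, 90.0, 78.8 and 76.4% against 76.7, 80.8, 72.3 and 77.4%. In both, restricted library 2 stood off from the other restricted ones and the groups overlapped.

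In the tile at 51990001 the CpG at 51990628 was the only one of 194 whose groups did not overlap, against 1.8% of all CpGs. It had 90.5, 90.0, 87.5 and 90.9% with restriction and 96.0, 95.8, 92.3 and 91.3% without, on 10 to 25 reads (adjusted p = 0.626 by the logistic model). Its neighbour at 51990619 had 39.4% ± 22 and 22.5% ± 8.78 (adjusted p = 0.622).

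At the upstream end of the gene, 4 neighbouring tiles from 52113001 to 52117000 held 9, 32, 61 and 27 CpGs and were nearly unmethylated, although no RefSeq start lies there in the promoter table. Their means were 0, 0.126, 0.0868 and 0.302% with restriction and 0.0361, 0.0627, 0.104 and 0.613% without. The outermost, with the smallest p of the Ppargc1a tiles, had 0, 0.151, 0.596 and 0.459% in restricted and 1.19, 0.478, 0.463 and 0.322% in unrestricted libraries (unadjusted p = 0.0842, adjusted p = 0.773 by the logistic model). Unrestricted library 1 was the highest and the groups overlapped.

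**Figure D4:**
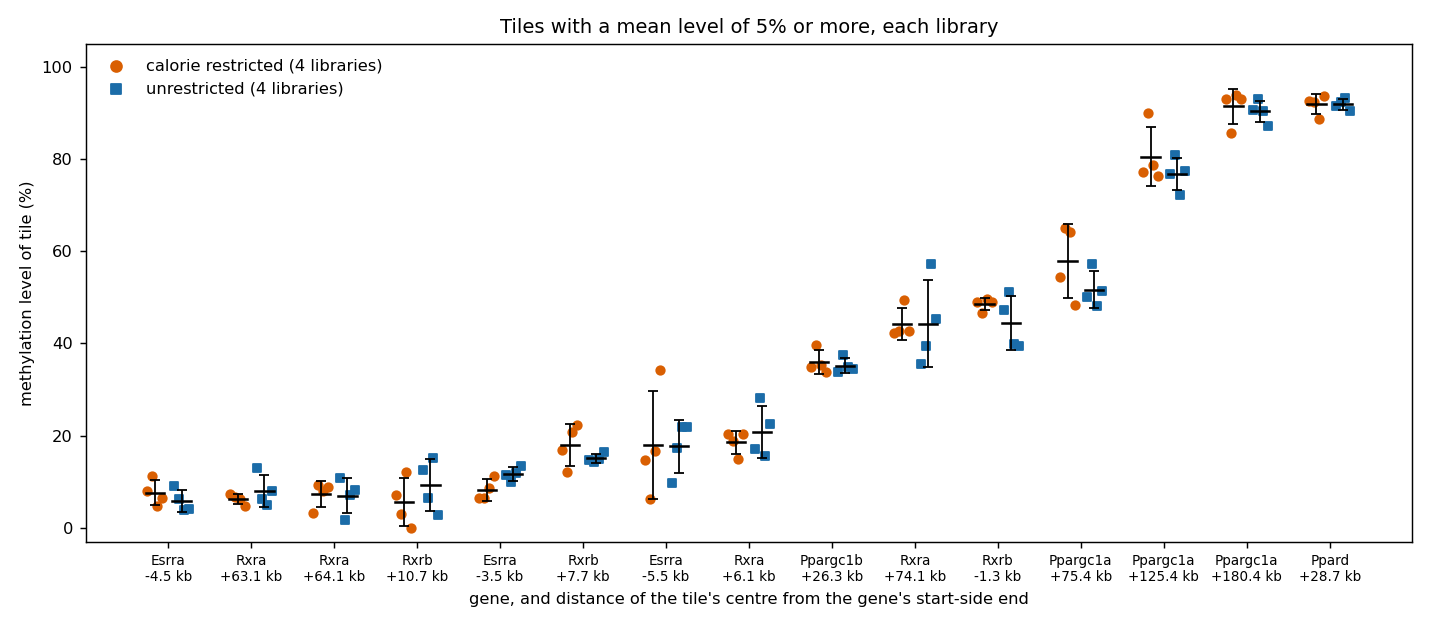
Methylation level in percent (vertical axis) of the 15 tiles with a mean of 5% or more, ordered by level, with 1 point per library, restricted (orange circles) left of unrestricted (blue squares), and bars for the mean and SD of 4 libraries. Labels give the gene and the distance of the tile from the gene's start-side end. The points of both diets overlap in every tile.

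Ppargc1b had 4 measured tiles on chromosome 18, of which 1 was methylated. That tile (61374001 to 61375000, 4 CpGs) had 35.0, 39.7, 35.2 and 33.8% in restricted and 33.8, 37.4, 35.0 and 34.5% in unrestricted libraries, with the groups overlapping. This level averages CpGs of very different state. The CpG at 61374338 had 79.4% ± 4.56 with restriction and 83.8% ± 2.90 without, that at 61374379 had 54.0% ± 5.81 and 51.3% ± 3.42, and that at 61374479 had 8.47% ± 3.97 and 5.60% ± 2.13. The Ppargc1b tile of smallest p, at 61398001 to 61399000 (22 CpGs), had 0% in all restricted libraries and 0.139, 0, 0 and 0.119% in unrestricted ones (adjusted p = 0.773 by the logistic model). The next tile along the chromosome (14 CpGs) had 0% in every library.

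Ppard had an almost unmethylated tile at its start and a methylated one inside the gene. The start tile, with the smallest p of its 2 tiles, had 0% in all restricted libraries and 0.115, 0, 0.243 and 0% in unrestricted ones (adjusted p = 0.773 by the logistic model). The interior tile (chromosome 17, 28261001 to 28262000, 5 CpGs) had 92.7, 92.3, 88.8 and 93.8% with restriction and 91.5, 92.3, 93.3 and 90.6% without. Restricted library 3 was the lowest and the means were 91.9% under both diets. The CpG at 28286873, further inside, spread most between libraries, with 34, 20.0, 68.4 and 34.8% in restricted and 18.2, 47.9, 46.2 and 23.5% in unrestricted libraries.

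Ppara was methylated at 3 CpGs inside the gene. The CpG at position 85745974 of chromosome 15 had 88.3% ± 5.68 with restriction and 93.5% ± 3.19 without, that at 85745987 had 98.7% ± 2.63 and 99.0% ± 2.08, and that at 85746062 had 95.1% ± 5.69 and 91.2% ± 3.65. Its tile of smallest p, at the start (85735001 to 85736000, 50 CpGs), had 0.165, 0, 0.084 and 0.103% with restriction and 0, 0.0448, 0.0758 and 0% without. Restricted libraries 1 and 4 were above the rest, library 2 was at 0, and the adjusted p was 0.773 by the logistic model. The tile that follows it (13 CpGs) had 2.22% ± 0.252 and 1.77% ± 0.772.

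Pparg had a start tile with 44 CpGs (chromosome 6, 115361001 to 115362000) and levels of 0.212, 0.334, 0.347 and 0.124% with restriction and 0.0756, 0.163, 0 and 0.135% without. Restricted library 4 lay among the unrestricted libraries, and the difference of 0.161 percentage points had an adjusted p of 0.773 by the logistic model. Over CpGs with at least 20 reads it was -0.0887 points. The Pparg CpG of smallest p, at 115361952, had 3.85, 3.45, 4.76 and 0% with restriction and 0% in the 4 unrestricted libraries (unadjusted p = 0.0367, adjusted p = 0.622 by the logistic model).

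Rxra was mostly of low level inside the gene, where the 36 CpGs outside the start window averaged 8.10% ± 0.216 with restriction and 8.58% ± 0.524 without, and 32 of them lay under 20%. The tile at 27739001 to 27740000 of chromosome 2 had 6.20% ± 1.08 and 7.97% ± 3.50, and the tile that follows it 7.33% ± 2.85 and 6.97% ± 3.79. Levels were higher in 2 tiles of few CpGs. The tile at 27750001 to 27751000 (3 CpGs) had 42.2, 42.6, 49.5 and 42.6% in restricted and 35.5, 39.4, 57.3 and 45.2% in unrestricted libraries, so that the unrestricted values surrounded the restricted ones. The tile at 27682001 to 27683000 (4 CpGs) had 20.3, 18.8, 15 and 20.3% against 17.0, 28.1, 15.6 and 22.5%. The Rxra tile of smallest p, at 27676001 to 27677000, had 0% in all restricted libraries and 0.360, 0, 0.408 and 0% in unrestricted ones (adjusted p = 0.773 by the logistic model).

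At the Rxra CpG 27682056, restricted libraries had 0 of 16, 1 of 16, 0 of 15 and 0 of 16 methylated reads, against 2 of 25, 10 of 32, 2 of 16 and 1 of 20 in unrestricted libraries. Unrestricted library 2 held most of the methylated reads, and restricted library 2 lay inside the unrestricted range. The difference was -12.6 percentage points (unadjusted p = 0.00256, adjusted p = 0.489 by the logistic model), and -6.94 points without unrestricted library 2 (adjusted p = 0.597).

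**Figure D5:**
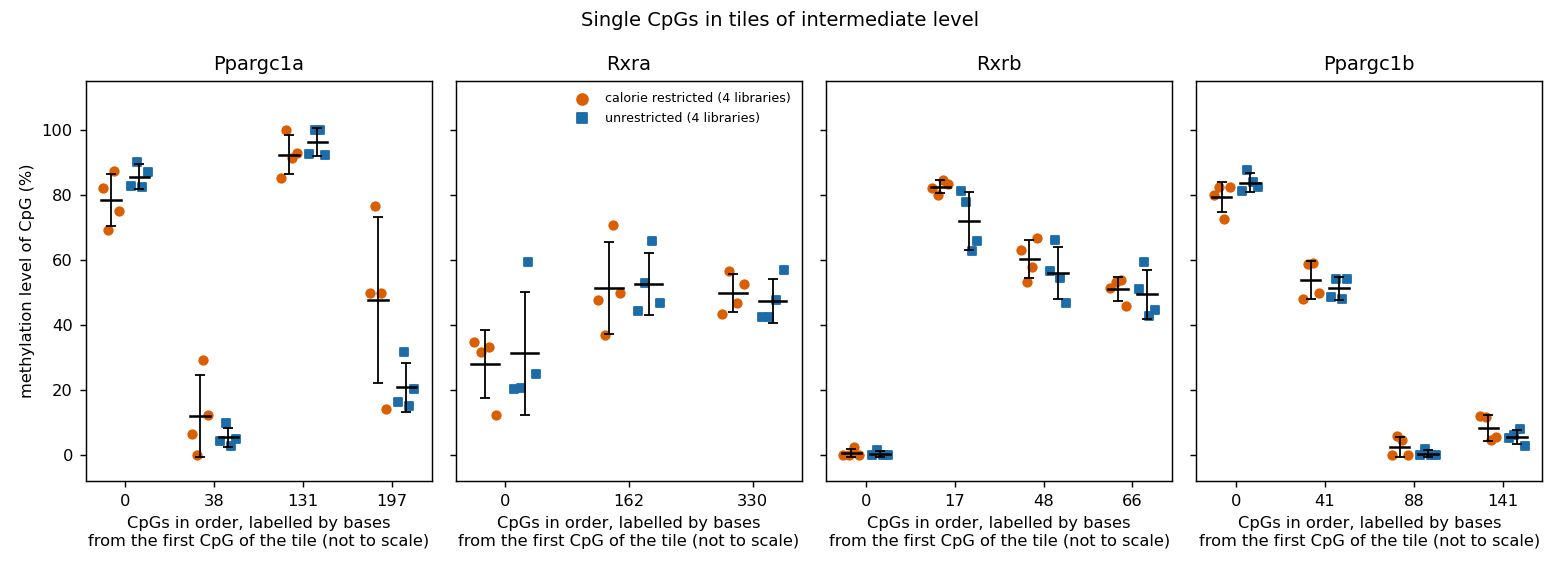
Level of each CpG in percent (vertical axis) in 4 tiles of intermediate level, in Ppargc1a, Rxra, Rxrb and Ppargc1b, with the CpGs in order of position and spaced evenly, not to scale. Each point is a library, restricted (orange circles) left of unrestricted (blue squares), and bars are the mean and SD of 4 libraries. Except in the Rxra tile, CpGs with group means under 20% share a tile with CpGs whose group means exceed 70%, and the last Ppargc1a CpG shows the widest spread among restricted libraries.

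Much of what the 5 kb flanks add belongs to neighbouring genes. Around Rxrb, 71 of 92 CpGs lie outside the gene body, among them 30 in H2-Ke6, 19 in Slc39a7 and 10 in Col11a2. The Slc39a7 tile (chromosome 17, 34030001 to 34031000, 4 CpGs) had 49.0, 46.7, 49.7 and 49.0% with restriction and 47.2, 51.3, 39.9 and 39.4% without, so that unrestricted libraries 3 and 4 were lowest and unrestricted library 2 highest. Its CpG at 34030545, which had the smallest p of the Rxrb region, had 82.5% ± 1.97 and 72.0% ± 8.93 (unadjusted p = 0.0519, adjusted p = 0.622 by the logistic model). Only 17 bases from it, the CpG at 34030528 had 0.641% ± 1.28 and 0.424% ± 0.847. The region's tile of smallest p, in Col11a2 (34039001 to 34040000), had 18.0% ± 4.55 and 15% ± 0.956 (adjusted p = 0.773).

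Around Esrra, 88 of 111 CpGs lie in the flanks, where Prdx5, Trmt112, Catsperz and Kcnk4 are annotated. The 2 tiles with an unadjusted p under 0.05 are both in the Esrra region, 1 in the flanks and 1 at the start of the gene. The tile at 6925001 to 6926000 of chromosome 19, which overlaps Catsperz and Kcnk4, had 6.37, 6.40, 8.62 and 11.3% in restricted libraries and 11.4, 9.89, 11.9 and 13.4% in unrestricted ones. Restricted library 4 lay above unrestricted library 2 and the other 3 restricted libraries lay below all unrestricted ones. The difference was -3.46 percentage points (unadjusted p = 0.0182, adjusted p = 0.760 by the logistic model), -1.66 points without restricted libraries 1 and 2, and 0.564 points over CpGs with at least 20 reads in every library.

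Within that tile, the CpG at 6925605 had 1.56% ± 3.12 with restriction and 9.73% ± 8.25 without, and the CpG at 6925651 had 18.0% ± 9.27 and 31.9% ± 2.37 (adjusted p = 0.622 for both by the logistic model). The tile at the Esrra start itself (6921001 to 6922000, 22 CpGs) had 0, 0.182, 0.125 and 0.170% with restriction and 0% in every unrestricted library (unadjusted p = 0.0432, adjusted p = 0.773 by the logistic model). All 22 CpGs are also in the start window. The tile at 6927001 to 6928000 in Kcnk4 had 14.8, 6.25, 16.7 and 34.2% against 9.68, 17.4, 21.9 and 21.8%, the widest spread among restricted libraries of all 37 tiles.

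Over single CpGs, 0 of 194 tested passed the logistic test, against 0.0997% of 191637 CpGs (191). At an unadjusted p under 0.05 there were 9, or 4.64%, against 5.62% of all, with 6 higher and 3 lower under restriction (2.89% and 2.73% of all CpGs). limma called 0 with 18 (9.28%) at an unadjusted p under 0.05, against 6.94% of all CpGs, and edgeR 0 with 6 (3.09%), against 3.41%. Of the CpGs of smallest p not yet given, Ppara 85735199 had 1.32% ± 1.70 with restriction and 0% without, Ppard 28232975 had 0% and 1.72% ± 3.45, and Ppargc1b 61400355 had 1.32% ± 2.63 and 0%, each with an adjusted p of 0.622. A CpG under 20% beside 1 over 50% within 100 bases, in every library, was found for 3 of 586 neighbouring pairs (0.512%, against 0.444% of 376662 pairs), of which 2 are in Ppargc1a and 1 in Slc39a7 beside Rxrb. This rule was chosen after values had been seen. The closer of the Ppargc1a pairs set 0% in all libraries at 51686955 beside 80.2% ± 11 with restriction and 74.5% ± 8.74 without at 51686986, a distance of 31 bases. The other, 76 bases apart, had 88.0% ± 4.60 with restriction and 85.6% ± 7.08 without at 52101308, beside 0% in all libraries at 52101384.

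Tiles of genes that work with these regulators had 0 calls in 5 lists, beside calls in 0.0177% of all tiles (6). At an unadjusted p under 0.05 the lists stand beside 6.32% of all tiles, and each tile below whose groups do not overlap stands beside 2.26% of all tiles. Of 20 PPAR targets in fatty acid oxidation, 15 had tested tiles, and 0 of 27 tiles passed, with 1 at an unadjusted p under 0.05 (3.70%). That tile, in Etfdh, which hands electrons from fatty acid oxidation to the respiratory chain, had 0% with restriction and 0.277% ± 0.210 without, and its groups did not overlap, as in 2.26% of all tiles (adjusted p = 0.739 by the logistic model). Cpt1b, a muscle form of the enzyme that lets long-chain fatty acids into mitochondria, had a tile at 18.1% ± 2.85 and 14.5% ± 4.98. Cpt1a, the liver form, had a tile at 0% and 0.0952% ± 0.190.

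Of 16 PPAR targets in lipid uptake and storage, 10 had tested tiles, and 0 of 15 tiles passed, with 1 at an unadjusted p under 0.05 (6.67%). It is in Plin2, a coat protein of lipid droplets, at 90.8% ± 3.48 and 95.2% ± 2.93 (adjusted p = 0.773 by the logistic model). Tiles of Fads2, a fatty acid desaturase, and Lpl, lipoprotein lipase, were at 0% with restriction and at 0.0687% ± 0.0887 and 0.181% ± 0.255 without.

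Of 19 coregulators and upstream regulators, 18 had tested tiles, and 0 of 73 passed, with 5 at an unadjusted p under 0.05 (6.85%). The lowest was in Prkaa1, a catalytic subunit of the energy sensor AMPK, with 18.8, 20.5, 18.7 and 17.4% in restricted and 26.1, 21.2, 31.1 and 30.3% in unrestricted libraries. Its groups did not overlap, with a difference of -8.32 percentage points (unadjusted p = 0.0106, adjusted p = 0.737 by the logistic model). Prdm16, a regulator of brown fat, had 21.3% ± 3.17 with restriction and 27.6% ± 3.31 without (adjusted p = 0.749 by the logistic model).

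Of 15 RXR partner receptors, 13 had tested tiles, and 0 of 45 passed, with 4 at an unadjusted p under 0.05 (8.89%). Nr4a2, an orphan receptor, had 1.98, 1.53, 1.59 and 1.36% in restricted and 2.54, 3.03, 3.85 and 3.57% in unrestricted libraries, which do not overlap (adjusted p = 0.757 by the logistic model). Vdr, the vitamin D receptor, had a tile of 3 CpGs at 94.7, 97.8, 97.1 and 100% in restricted and 91.2, 93.7, 82 and 94.4% in unrestricted libraries, which do not overlap either, and Rarb, a retinoic acid receptor, had a tile at 0.364% ± 0.728 and 0% (adjusted p = 0.773 for both by the logistic model). Of 17 genes of ERR signalling and mitochondrial biogenesis, 15 had tested tiles, and 0 of 38 passed, also with 0 at an unadjusted p under 0.05. The lowest tile p-values there were in Pprc1, a relative of PGC-1alpha (0.386% ± 0.446 with restriction, 0% without), and in Esrrb and Esrrg, the other ERR genes. Esrrb had 0.0949% ± 0.190 and 0.633% ± 0.501, and Esrrg 2.42% ± 3.17 and 0.424% ± 0.847. Among gene-start windows of these lists, in the order above, 1 of 13, 0 of 8, 0 of 14, 0 of 11 and 2 of 16 had an unadjusted p under 0.05. The model was the logistic one, and the share of all windows was 7.01%. None of these windows passed, against 0.121% of all windows.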

How the data were processed

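Bisulfite-converted DNA of sorted cells from 4 restricted and 4 unrestricted libraries was sequenced as 100 bp paired ends from 20 ng, per the labels' protocols. The tools listed in the submitters' processing notes, without role or order, are methylKit, Bismark 0.13.1, FastQC, cutadapt and Trim Galore 0.3.3, and the build is mm10. Each deposited file gives, per CpG cytosine and strand, the read count and the percent of reads called methylated and unmethylated. Lanes of single libraries and duplicate removal are not given in the sources used here.

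Multiplying count by percent gave methylated reads, and strands were added. The products lay within 0.0488 of a whole number, a check that left out the most deeply read cytosines. Units were single CpGs (10 reads or more in every library), 1 kb tiles of at least 3 such CpGs, gene-start windows, and gene regions of at least 10 CpGs. Logistic regression (numpy 2.4.6, scipy 1.17.1) used a Pearson dispersion moderated as in limma's squeezeVar and not under 1, with Benjamini-Hochberg adjustment over all units of a type and a threshold of 0.05. Units without any methylated or unmethylated read were not tested. The model was tested on simulated data. Alternatives were limma 3.58.1 on M-values (offset 1), edgeR 4.0.16, other coverage minimums, tiles and windows, the replicate number as a block, and each library left out. Levels are means of 4 libraries with SD.

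Gene positions came from RefSeq tables of GRCm38.p6; exons were not used. The genes and pathway lists were chosen with earlier results of these data known. Named are all 8 genes with their windows, tile and CpG of smallest p and tiles with an unadjusted p under 0.05, and 3 genes per pathway list, of which 1 is not reported here; further CpGs and tiles were named after their values were seen.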

Additional observations from a re-analysis of the deposited data

Results flagged for a closer look

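Among 84 groups of 4 libraries checked in these genes, 5 had 1 library far from the other 3. The rule's chance rate of about 1 in 20 holds for separate groups of normally spread values. It does not apply here, since units of a gene share CpGs and many values are 0. The mean level of Rxra was 4.53% in unrestricted library 2, against 5.17 to 5.19% in the other unrestricted libraries. In the remaining 4 groups, single CpGs were at 0% in 3 libraries and above it in 1. The rule flags every such group, even where the value above 0 is a single methylated read. Restricted library 2 had 6.25% at Rxra 27682056 and 6.25% at Esrra 6925605. Restricted library 3 had 5.26% at Ppargc1b 61400355. Unrestricted library 3 had 6.90% at Ppard 28232975.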

How the results depend on the processing

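No tile, window or gene region of the 8 genes passed under any of the alternatives run, and single CpGs gave 0 calls except 1 without restricted library 4 and 1 without unrestricted library 2 (Ppargc1a 52040998). Counts over all units depended more on the method. Against 6 tiles, 191 CpGs, 16 windows and 0 regions, limma called 0, 0, 0 and 0, edgeR 110, 93, 18 and 19, a minimum of 20 reads 2, 103, 28 and 0, and a minimum of 5 reads 2, 245, 23 and 0. Leaving out 1 library gave 0 to 24 tiles, 134 to 746 CpGs, 11 to 40 windows and 0 to 58 regions, and leaving out restricted libraries 1 and 2 gave 4, 673, 8 and 0; without flanks 1 region was called. The replicate number as a block gave 0 calls for all 4 kinds; same-numbered libraries deviated with correlations of -0.0135, -0.0872, -0.0312 and -0.0129, so the numbers were not used as pairs. Mean levels of genes (restricted minus unrestricted, percentage points) moved beyond the SD of libraries in 9 cases: at 5 reads to -0.863 in Ppard, -0.00884 in Pparg and 0.0591 in Rxra; at 20 reads to -0.0887 in Pparg and 0.0100 in Rxra; with read-weighted means to -1.02 in Rxra, -0.551 in Rxrb and -0.485 in Ppargc1b; and without flanks to 0.137 in Esrra. Differences that missed the test changed sign as follows, and the cause was not tested. At 20 reads, Pparg tile 115361001 and the Pparg start 2 window both gave -0.0887, Esrra tile 6925001 gave 0.564 and the Rxrb region 0.00394. At 5 reads, Rxrb start 1 gave 0.00929, and the regions of Ppara -0.413, Ppard -1.52, Ppargc1a -0.0148, Ppargc1b 0.671 and Esrra -0.559. By limma, on the log2 scale, the Rxra window gave 0.30, Rxrb start 1 0.46 and Ppard CpG 28232975 0.16. M-values add 1 to the methylated and to the unmethylated reads, so at 0 methylated reads they vary with read number alone. At that Ppard CpG no restricted library had a methylated read. By edgeR, also on the log2 scale, the Rxra window gave 0.25 and Rxrb start 1 0.024. Without restricted libraries 1 and 2, Rxrb start 2 gave -0.00701, the Rxrb region 0.0260 and the Esrra region -0.0793. Without flanks, the regions of Ppara gave -0.151 and of Rxrb 0.0290. With windows of 500 bases on each side the Rxra window gave 0.103, and with 2000 bases Rxrb start 2 gave -0.505. With 1 library left out, ranges that crossed 0 were -0.0490 to 0.0351 for the Rxra window, -0.0231 to 0.0410 and -0.000446 to 0.0508 for Rxrb starts 1 and 2, -0.0167 to 0.121 for Pparg start 1, and for regions -0.128 to 0.193 in Ppara, -0.680 to 1.33 in Ppard, -0.155 to 0.654 in Ppargc1a and -0.0228 to 0.237 in Esrra. Depth limits single CpGs most: at 14 to 43 reads, the exact 95% intervals of Ppargc1a 52040998 were 23.9 to 43.1 points wide.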
